A study of Arabidopsis thaliana with 8 samples.

Results

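The comparison described here set protoplasts of Arabidopsis thaliana, plant cells stripped of their walls, that carried VND7XVE and received estradiol with cycloheximide against protoplasts of the same kind that received cycloheximide alone. VND7XVE is an estradiol-activated form of the transcription factor VND7. Each of these groups had 2 arrays, so that 4 of the 8 arrays of the series were compared, and all 22746 probe sets outside the 64 array controls were tested. The other 4 arrays held cells with SND1XVE, the corresponding form of the fibre wall factor SND1, 2 with estradiol and cycloheximide and 2 with cycloheximide alone. Cycloheximide was therefore common to every group. Cells without either factor were not among the samples, so that an estradiol effect common to both lines cannot be told apart from a response to the factors. There were 21 rises of at least 64-fold in VND7XVE cells. Of these, 14 also had a log2 effect of at least 1 in SND1XVE, an effect given without a test. A difference between the lines was called for 17, each larger in VND7XVE. These probe sets were chosen for their VND7XVE rise, so the counts are a description. The labels do not give the source tissue, the share of cells that carried the construct, the dose or the time, and they do not say whether replicates came from separate preparations. The p-values thus rest on differences among these samples alone, possibly technical ones.

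VND7 is a NAC family transcription factor known as a master switch of water-conducting vessel cells. Such cells deposit a patterned secondary wall of cellulose, xylan and lignin, then die, clear their contents and partly digest their walls, which leaves an open tube. Cycloheximide blocks protein synthesis, so the design asks which transcripts respond to activated VND7 without newly made intermediate factors. The probe sets that the annotation used here gives to 1 gene are 13513 of the 22746; 503 name several genes and 8730 were not listed. VND7 itself, the secondary wall cellulose synthases and the MYB factors of the wall programme were not analysed here.

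Signals are the authors' array intensities in arbitrary units. Median signals were 108.3 and 109.0 units on the estradiol arrays and 98.95 and 99.4 units on the control arrays, while trimmed means were equal to within 0.1 unit. The log2 signals of the 2 estradiol arrays correlated at 0.985 and those of the 2 control arrays at 0.980. The ratio of 3′ to 5′ signal of the actin control, a sign of RNA integrity, was 4.64 and 3.98 with estradiol and 3.72 and 4.16 in the controls, so that the groups overlapped. A pair of GAPDH controls gave ratios of 0.96 to 1.05 with estradiol and 0.946 to 1.11 in the controls. All changes below are differences of log2(signal + 16), tested with limma across all probe sets and called at a Benjamini-Hochberg adjusted p under 0.05.

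Estradiol changed 1718 probe sets, of which 1034 rose (4.55% of those tested) and 684 fell (3.01%). Rises were larger than falls. The median called rise was 1.26 and the median called fall -0.55 on the log2 scale, and the median over all probe sets was -0.05. At least 2-fold rises numbered 633 (2.78%), and falls of that size numbered 70 (0.308%). Rises reached at least 4-fold for 277 probe sets, 8-fold for 139, 16-fold for 75 and 64-fold for 21, while no called fall reached 4-fold. Of the 139 rises of at least 8-fold, 82 started below a control mean of 50 units and 10 from at least 200 units. The VND7XVE groups did not overlap for any of the 1718 called probe sets. The share without overlap over all probe sets was not counted, so this adds no support to the calls. When log2 values were centred on each array's median, the median over all probe sets moved to -0.16, and 881 rises stood beside 1422 falls, so that rises made up 38.3% of the calls in place of 60.2%. The number of falls thus depended on the scaling.

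**Figure D1:**
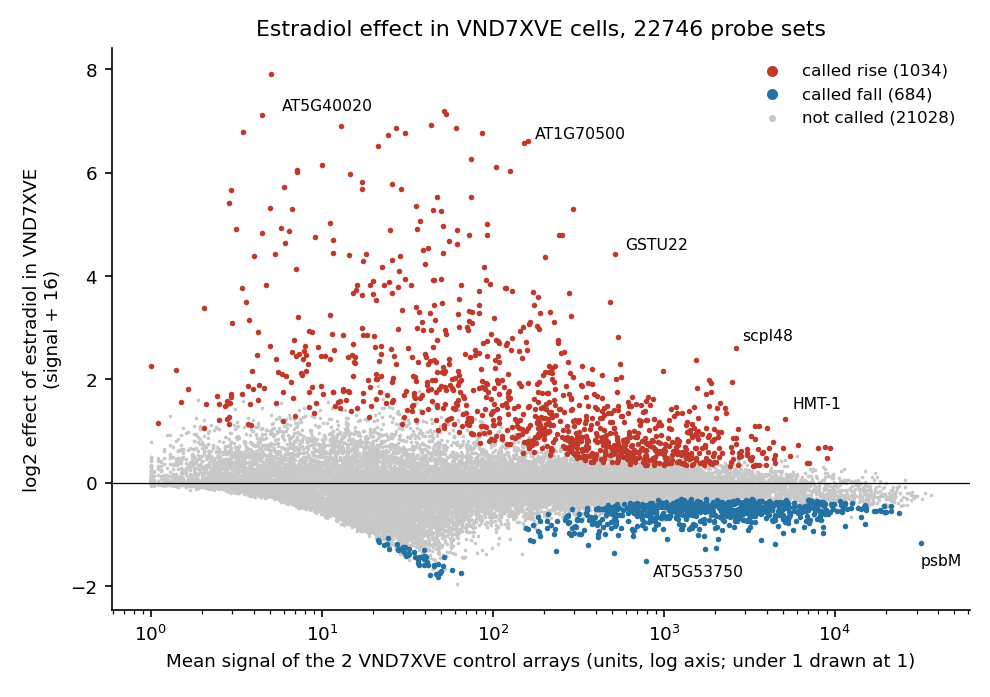
Each point is 1 of the 22746 probe sets, placed by its mean signal on the 2 VND7XVE control arrays (units, log axis) and by its log2 effect of estradiol on signals with 16 added. The 1034 called rises reach 7.91, the 684 called falls stay under 4-fold, and most of the rises of at least 8-fold lie below 50 units of control signal.

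The largest rise of a named gene was that of AT5G40020, a member of the thaumatin family of secreted proteins. Its signal was 2572 and 3094 units on the estradiol arrays, against 4.6 and 4.4 units on the control arrays. This is a log2 rise of 7.11 ± 0.30 (limma adjusted p = 2.56e-07), or 138-fold on signals with 16 added. With control signals of a few units the size of such a rise depends on the added constant, and it was 9.00 with 1 added and 5.40 with 64 added. All 30 of the largest named rises had estradiol signals over 400 units, and 25 had both control signals under 100 units. Their call was made in all 19 alternatives that were run. These genes were picked as the largest called rises on the same values, so this adds no separate support. The percentile filters asked for at least 2 arrays, which the estradiol arrays alone could supply.

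Genes whose products act on pectin, the wall polymer that vessel cells remodel and in part remove, were among the strongest rises. AT1G70500, a polygalacturonase-like protein of the pectin lyase fold, had 16084 and 15644 units on the estradiol arrays, against 177 and 129 units on the control arrays. Its log2 rise was 6.57 ± 0.15 (limma adjusted p = 5.26e-09). AT1G65570, of the same fold, had 3319.7 and 3061 units with estradiol, against 24.2 and 1.8 units in the controls, a log2 rise of 6.90 ± 0.37. Its 2 control arrays differed widely, but both lay far below the estradiol arrays. AT1G23460, also of this fold, had 7957 and 6958 units with estradiol, against 276 and 231 units in the controls and rose by 4.79 ± 0.16 on the log2 scale; its probe set carries the suffix Affymetrix uses for probes shared by similar transcripts, so signal of a related gene cannot be told apart. AT4G24430, of the rhamnogalacturonate lyase family, which cuts another part of pectin, had 1007 and 1051 units with estradiol, against 9.1 and 69.2 units in the controls. Its log2 rise was 4.50 ± 0.51 (limma adjusted p = 2.84e-04).

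A pair of genes for proteins that set the methyl esterification of pectin were among the large rises. AT3G47400, a pectin methylesterase family member, had 1799.9 and 1741 units with estradiol, against 3.7 and 16.4 units in the controls, a log2 rise of 6.14 ± 0.37. AT5G38610, of the family of inhibitors of that enzyme and of invertase, had 7309 and 6647 units with estradiol, against 74.7 and 75.1 units in the controls, a log2 rise of 6.26 ± 0.16 with close agreement within each group. These genes were picked out by rank or after their values were seen, so their share among pectin genes is not given. The 28 named expansins and xyloglucan endotransglucosylases, proteins that loosen the primary wall, held no called rise, against 4.55% of all probe sets, and 1 called fall (3.57%, against 3.01%). That fall was of XTH18, with 1674 and 1417 units with estradiol, against 2295 and 2223 units in the controls, a log2 change of -0.55 ± 0.13 (limma adjusted p = 0.0343). The call for XTH18 was lost without SND1XVE control replicate 1, SND1XVE control replicate 2, VND7XVE control replicate 1, VND7XVE control replicate 2, VND7XVE estradiol replicate 1 or VND7XVE estradiol replicate 2 (limma adjusted p up to 0.226), and also when no intensity trend was fitted.

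Xylan, the main hemicellulose of the vessel wall, was represented by 5 named genes of the 23 on a list of its synthesis, of which 3 rose, 1 fell and 1 was not called. The list's median was 2.94, against -0.05 over all probe sets, of which 4.55% rose and 3.01% fell. The list was chosen with earlier results of these data known, so its counts and median are a description. IRX15, a protein needed for normal xylan chains, had 633 and 641 units on the estradiol arrays, against 6.2 and 6.6 units on the control arrays. It rose by 4.87 ± 0.24 on the log2 scale (limma adjusted p = 6.68e-07), and both control signals lay far below the array medians while both estradiol signals lay above them. GUT2, also called IRX10, a xylosyltransferase of the xylan backbone, had 1143 and 1293 units with estradiol, against 153 and 137 units in the controls, a log2 rise of 2.94 ± 0.14. TBL34, of the family that adds acetyl groups to xylan, had 789.7 and 851 units with estradiol, against 4.2 and 5.8 units in the controls, a log2 rise of 5.32 ± 0.36. It was the sole called member of 24 named trichome birefringence-like proteins, so that 4.17% rose, close to the share over all probe sets.

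The close relatives of these xylan genes did not follow them. GUT1, also called IRX10-L, had 263 and 237 units with estradiol, against 307 and 284 units in the controls, a log2 difference of -0.23 ± 0.13 that was not called (limma adjusted p = 0.412). IRX15-L had 153 and 154 units with estradiol, against 269 and 283 units in the controls, with no overlap of the groups, and fell by 0.78 on the log2 scale (SE 0.15, limma adjusted p = 0.00865); this call was lost without VND7XVE control replicate 1, VND7XVE control replicate 2, VND7XVE estradiol replicate 1 or VND7XVE estradiol replicate 2 (limma adjusted p up to 0.0742). AT4G08160, XYN3, of the xylanase family that cuts xylan, had 1793 and 1844 units with estradiol, against 24.2 and 5 units in the controls, a log2 rise of 5.98 ± 0.55 (limma adjusted p = 6.55e-05). AT5G15050, of a glucuronosyltransferase family that acts on arabinogalactan proteins, had 1397 and 1399 units with estradiol, against 14 and 57.6 units in the controls, a log2 rise of 4.91 ± 0.34. USP, which makes activated sugars for wall polymers, had 2201 and 1928 units with estradiol, against 1398 and 1494 units in the controls, a smaller log2 rise of 0.51 ± 0.09 (limma adjusted p = 0.00721) that was lost without VND7XVE control replicate 1 or VND7XVE estradiol replicate 1 (limma adjusted p up to 0.0945).

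**Figure D2:**
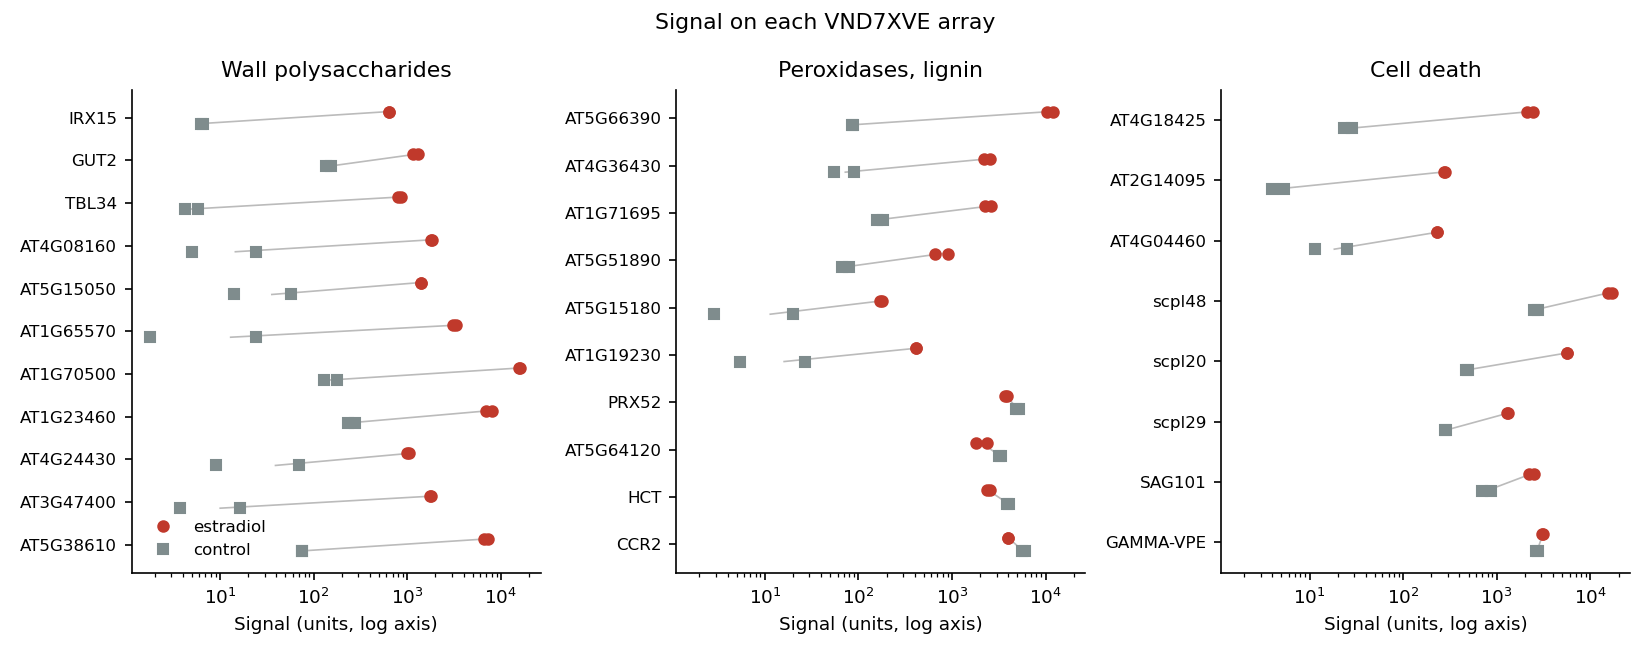
Signal on each of the 4 VND7XVE arrays (units, log axis) for named genes of the wall polysaccharide, peroxidase and lignin, and cell death groups, with red circles for the 2 estradiol arrays, grey squares for the 2 control arrays and a line between the group means. AT1G70500 and AT5G66390 lie far above the array medians with estradiol, against under 200 units in the controls, while PRX52, AT5G64120, HCT and CCR2 lie lower with estradiol than in the controls.

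Lignin, the phenolic polymer that makes the vessel wall waterproof, is formed when peroxidases oxidise its monomers. The list of lignin genes held 23 names, of which 5 were named on the array, and 2 rose and 3 fell, with a median of -0.41. Both rises were peroxidases. This list too was chosen with earlier results of these data known. AT5G66390, PRX72, had 11904 and 10377 units on the estradiol arrays, against 84.9 and 87.2 units on the control arrays. Its log2 rise was 6.77 ± 0.15 (limma adjusted p = 3.31e-09). AT5G51890, PRX66, had 654 and 899 units with estradiol, against 79.3 and 66.7 units in the controls, a log2 rise of 3.14 ± 0.29 (limma adjusted p = 6.60e-05). By name in the tables used here the peroxidase family had 7 probe sets, of which 1 rose (14.3%, against 4.55% of all), 2 fell (28.6%, against 3.01%) and 4 were not called, with a median of -0.08; members that carry only a locus code were not found this way. The next 3 peroxidase genes were picked by their rank or after their values were seen. AT4G36430, PRX49, had 2574 and 2200.0 units with estradiol, against 89.9 and 55.1 units in the controls, a log2 rise of 4.79 ± 0.33. AT1G71695, PRX12, had 2587 and 2263 units with estradiol, against 185 and 159 units in the controls, a rise of 3.70 ± 0.14. AT5G15180, PRX56, rose from a very low control level, with 172 and 179 units with estradiol, against 2.9 and 20 units in the controls.

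The falls on the lignin list were each under 2-fold. In SND1XVE the log2 effects of these genes were -0.53 for HCT, -0.39 for PRX52 and -0.65 for AT5G64120. A difference between the lines was called for none of them. HCT, an acyltransferase on the route to the lignin monomers, had 2546 and 2367 units with estradiol, against 4047 and 3879 units in the controls, a log2 change of -0.69 ± 0.08 (limma adjusted p = 4.81e-04). PRX52 had 3902 and 3658 units with estradiol, against 5262 and 4773 units in the controls, a change of -0.41 ± 0.10 (limma adjusted p = 0.0340). Its call was lost with any 1 VND7XVE array left out, and also without the intensity trend (limma adjusted p = 0.182). AT5G64120, PRX71, had 1814 and 2386 units with estradiol, against 3328 and 3201 units in the controls, a change of -0.65 ± 0.12 (limma adjusted p = 0.00731). That call was lost without VND7XVE control replicate 1 or VND7XVE control replicate 2, and also without the intensity trend (limma adjusted p = 0.105). CCR2, a cinnamoyl-CoA reductase outside the list, had 3970.2 and 3969 units with estradiol, against 5562 and 5976 units in the controls, a change of -0.54 ± 0.08 (limma adjusted p = 0.00268), and was not called without the intensity trend (limma adjusted p = 0.0705). The next genes were also picked after their values were seen. AT1G19230, RBOHE, of the family of NADPH oxidases that make the superoxide from which peroxide forms, had 413 and 411 units with estradiol, against 26.8 and 5.4 units in the controls, a log2 rise of 3.82 ± 0.34. AT3G27200, of the copper-binding cupredoxin family, had 6935 and 7409.8 units with estradiol, against 254 and 232 units in the controls, a rise of 4.79 ± 0.30. BGLU45, a glucosidase that releases monolignols from their glucosides, had 839 and 807 units with estradiol, against 402 and 473 units in the controls, a smaller rise of 0.89 ± 0.11 (limma adjusted p = 5.34e-04). Of 20 named beta-glucosidases, BGLU45 rose, BGLU41 rose by 1.98 ± 0.43, and BGLU27 and BGLU28 changed by -0.69 ± 0.15 and -0.54 ± 0.13. Rises made up 4.55% and falls 3.01% of all probe sets. The call for BGLU41 was lost without VND7XVE control replicate 2, VND7XVE estradiol replicate 1 or VND7XVE estradiol replicate 2 (limma adjusted p up to 0.144), that for BGLU27 was lost without VND7XVE control replicate 1, VND7XVE control replicate 2 or VND7XVE estradiol replicate 2 (limma adjusted p up to 0.120) and that for BGLU28 was lost without SND1XVE control replicate 1, SND1XVE control replicate 2, VND7XVE control replicate 1, VND7XVE control replicate 2 or VND7XVE estradiol replicate 2 (limma adjusted p up to 0.190).

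Vessel cells end their differentiation by programmed cell death, and most of the genes listed for that step that could be named rose. Of 12 listed genes 6 were named on the array, and 5 rose while 1 was not called, with a list median of 2.74. Among all probe sets 4.55% rose, and the median was -0.05. The list was chosen with earlier results of these data known, so its count and median are a description. AT4G18425, DMP4, a membrane protein of a family linked to membrane breakdown in dying cells, had 2126 and 2454 units on the estradiol arrays, against 23.3 and 28.1 units on the control arrays. It rose by 5.79 ± 0.30 on the log2 scale (limma adjusted p = 9.96e-07). AT4G04460, PASPA3, an aspartic protease known as a marker of developmental cell death, had 233 and 228 units with estradiol, against 11.4 and 25.4 units in the controls, a log2 rise of 2.87 ± 0.32 (limma adjusted p = 2.69e-04). AT2G14095, EXI1, which acts in tracheary cell death and is not on the list, had 279 and 273 units with estradiol, against 5.4 and 4 units in the controls, a rise of 3.82 ± 0.38.

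Of 29 named genes of the serine carboxypeptidase family, 4 rose (13.8%, against 4.55% of all probe sets) and none fell, with a family median of -0.11. The gene scpl48 had 16875 and 15302 units with estradiol, against 2503 and 2742 units in the controls, a log2 rise of 2.61 ± 0.10 (limma adjusted p = 9.92e-08). In the case of scpl20 the signals were 5589 and 5618 units with estradiol, against 474 and 493 units in the controls, a rise of 3.49 ± 0.11. For scpl29 they were 1273 and 1326 units with estradiol, against 279.7 and 289 units in the controls, a rise of 2.13 ± 0.14. SCPL49 rose less, with 1351 and 1551 units with estradiol, against 1066 and 819 units in the controls and a log2 change of 0.62 ± 0.14 (limma adjusted p = 0.0255), and its call was lost without VND7XVE control replicate 2, VND7XVE estradiol replicate 1 or VND7XVE estradiol replicate 2 (limma adjusted p up to 0.196). GAMMA-VPE, a vacuolar processing enzyme that matures other hydrolases, was not called, with 3149 and 3077 units with estradiol, against 2761 and 2636 units in the controls and a log2 difference of 0.21 ± 0.08 (limma adjusted p = 0.186). SAG101, a lipase-like protein tied to senescence and immune cell death, had 2525 and 2206 units with estradiol, against 702 and 871 units in the controls, a rise of 1.57 ± 0.14. APG8A, of the autophagy machinery, had 1695 and 1526 units with estradiol, against 872 and 979 units in the controls, a rise of 0.79 ± 0.11 (limma adjusted p = 0.00150) that was not called without the intensity trend (limma adjusted p = 0.0512).

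The transcription factor genes described next were named by rank or after their values were seen, so that they give no share of any factor family. AT3G10590, a MYB-related protein, had 5011 and 4389 units on the estradiol arrays, against 12.5 and 48.7 units on the control arrays. Its log2 rise was 6.78 ± 0.35 (limma adjusted p = 9.96e-07). AT5G03510, a C2H2 zinc finger protein, had 2239.6 and 2411 units with estradiol, against 41.9 and 47.2 units in the controls, a rise of 5.27 ± 0.17, and AT2G28200, of the same class, had 1105 and 1214 units with estradiol, against 237 and 223 units in the controls, a rise of 2.25 ± 0.15. AT4G28140, of the AP2/ERF family, had 1560.2 and 1407 units with estradiol, against 158 and 167 units in the controls, a rise of 3.07 ± 0.11 with little spread within either group. NGA2, a B3 domain factor of the NGATHA family, had 635 and 556 units with estradiol, against 82.1 and 123 units in the controls, a rise of 2.38 ± 0.26. AT4G08250, of the GRAS family, had 102 and 109 units with estradiol, against 2 and 13.6 units in the controls, and AT1G21340, a Dof factor, had 147 and 91.4 units with estradiol, against 11 and 5.1 units in the controls. Their log2 rises were 2.40 ± 0.36 and 2.47 ± 0.36. Another Dof factor, AT2G28510, moved the other way, with 118 and 179 units with estradiol, against 349 and 368 units in the controls and a log2 change of -1.21 ± 0.21 (limma adjusted p = 0.00525), a call that was lost without VND7XVE control replicate 1, VND7XVE control replicate 2 or VND7XVE estradiol replicate 1 (limma adjusted p up to 0.0598). Of the list of MYB and other factors below the NAC switches, the single named member was the zinc finger gene AT1G66810, C3H14, which was not called, with 78 and 47 units with estradiol, against 39.6 and 73.8 units in the controls. Of 6 named WRKY factors none rose and 2 fell (33.3%, against 3.01%), with a family median of -0.29. WRKY22 had 5439 and 5706 units with estradiol, against 7339.5 and 6741 units in the controls, a change of -0.34 ± 0.09 (limma adjusted p = 0.0497), and WRKY47 had 425 and 481 units with estradiol, against 673 and 597 units in the controls, a change of -0.47 ± 0.11 (limma adjusted p = 0.0268). Neither was called with any 1 VND7XVE array left out or without the intensity trend.

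Ubiquitin ligases of the plant U-box family moved in both directions. Of 9 named PUB probe sets 3 rose and 3 fell, which is 33.3% in each direction, against 4.55% and 3.01% of all probe sets. PUB25 had 1526 and 1619 units with estradiol, against 77.2 and 116 units in the controls, a log2 rise of 3.84 ± 0.17 (limma adjusted p = 3.95e-07). PUB26, its close relative, had 185 and 196 units with estradiol, against 55.4 and 27.2 units in the controls, a rise of 1.90 ± 0.31. PUB19 had 779 and 792 units with estradiol, against 297 and 277 units in the controls, a rise of 1.40 ± 0.17. AT1G23030, known as PUB11 but not carrying that symbol in the tables used here, had 688 and 621 units with estradiol, against 90.3 and 124 units in the controls, a rise of 2.46 ± 0.16. The falls were those of PUB23, with 4592 and 5081 units with estradiol, against 8102 and 7709.5 units in the controls and a log2 change of -0.71 ± 0.09 (limma adjusted p = 7.89e-04), of PUB43 with -0.39 and of PUB22 with -0.42. The call for PUB43 was lost without VND7XVE control replicate 1, VND7XVE control replicate 2, VND7XVE estradiol replicate 1 or VND7XVE estradiol replicate 2 (limma adjusted p up to 0.210), and that for PUB22 was lost without SND1XVE estradiol replicate 1, SND1XVE estradiol replicate 2, VND7XVE control replicate 1, VND7XVE control replicate 2, VND7XVE estradiol replicate 1 or VND7XVE estradiol replicate 2 (limma adjusted p up to 0.267).

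Signalling genes with rises included AT1G08340, ROPGAP5, a regulator of the small GTPases that pattern vessel walls, with 148 and 116 units with estradiol, against 23.5 and 18.1 units in the controls and a log2 rise of 2.01 ± 0.31 (limma adjusted p = 0.00219). IQD31, a calmodulin-binding protein of the IQ-domain family, had 389.9 and 367 units with estradiol, against 69.5 and 104 units in the controls, a rise of 1.96 ± 0.21. Its relative IQD23 had 1546 and 1542 units with estradiol, against 2394 and 2498 units in the controls, a change of -0.66 ± 0.08 (limma adjusted p = 4.25e-04). Thus 1 of 11 named IQD genes rose and 1 fell, or 9.09% each way, against 4.55% and 3.01% of all probe sets. AT1G13920, of the remorin family of membrane-bound proteins, had 210.1 and 203 units with estradiol, against 2.7 and 4.5 units in the controls, a rise of 3.51 ± 0.32. AT5G59845, of the family of gibberellin-regulated GASA peptides, had 1354 and 1202 units with estradiol, against 89.9 and 76.2 units in the controls, a rise of 3.71 ± 0.27.

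The genes of detoxification and metabolism described next were named by rank, by family or after their values were seen. GSTU22, a tau class glutathione transferase, had 11869.8 and 11074 units on the estradiol arrays, against 537 and 502 units on the control arrays, a log2 rise of 4.42 ± 0.11 (limma adjusted p = 6.32e-09). GSTU25 had 7626 and 6861 units with estradiol, against 1671 and 1979 units in the controls, a rise of 1.98 ± 0.11. These were 2 of 11 named members of the class (18.2%, against 4.55% of all probe sets), and none fell. CYP71B21, a cytochrome P450, had 1891 and 1908 units with estradiol, against 62 and 61.5 units in the controls, a rise of 4.62 ± 0.18, and CYP71B5 had 921 and 861 units with estradiol, against 211 and 182 units in the controls, a rise of 2.10 ± 0.13. The other 22 of 24 named cytochromes P450 were not called, so that 8.33% rose. CHIL, of the chalcone isomerase family that acts in flavonoid synthesis, had 558 and 608 units with estradiol, against 23.6 and 25.8 units in the controls, a rise of 3.88 ± 0.31. AT5G07800, of the flavin monooxygenase family, had 2960.0 and 3072 units with estradiol, against 38.7 and 4 units in the controls, a rise of 6.52 ± 0.39. CXE20 had 2840.4 and 2735 units with estradiol, against 269.6 and 301 units in the controls, a rise of 3.22 ± 0.20, and was the called 1 of 3 named carboxyesterases. AT3G14360, a lipase family member, had 3009.7 and 2821 units with estradiol, against 70.9 and 114 units in the controls, a rise of 4.79 ± 0.19.

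Among 47 named UDP-glycosyltransferases, which attach sugars to small molecules, 2 rose (4.26%, against 4.55% of all probe sets) and 5 fell (10.6%, against 3.01%). The falls were those of UGT73C2 with -1.40 ± 0.34, UGT73C1 with -0.98 ± 0.21, UGT84A3 with -0.60 ± 0.12, UGT76C2 with -0.53 ± 0.12 and UGT71B6 with -0.43 ± 0.11. With 1 VND7XVE array left out 0 to 1 of the 5 falls was called, and both rises were. The rises were UGT74F1, which glucosylates salicylic acid, with 146 and 129.6 units with estradiol, against 9.6 and 4.1 units in the controls and a log2 rise of 2.76 ± 0.33, and UGT71B5 with 549 and 618 units with estradiol, against 218 and 187 units in the controls and a rise of 1.45 ± 0.14. HMT-1, a homocysteine methyltransferase of methionine synthesis, rose from a high control level, with 12441 and 11789.8 units with estradiol, against 5318 and 4937 units in the controls and a change of 1.24 ± 0.10 (limma adjusted p = 2.04e-05). AMY1, an alpha-amylase, had 1373 and 1462 units with estradiol, against 333 and 388 units in the controls, a rise of 1.93 ± 0.12. AT2G21550, of the bifunctional dihydrofolate reductase and thymidylate synthase family, had 199 and 269 units with estradiol, against 4.1 and 18.3 units in the controls, a rise of 3.24 ± 0.40. Of 14 named SWEET sugar transporters 2 rose and none fell. SWEET17, a vacuolar fructose carrier, had 1451 and 1308 units with estradiol, against 483 and 389 units in the controls, a rise of 1.63 ± 0.19, and SWEET2 had 1957 and 2233 units with estradiol, against 869.8 and 878 units in the controls, a rise of 1.24 ± 0.09. JAL34, a jacalin-related lectin, had 909.7 and 1091 units with estradiol, against 126 and 132 units in the controls, a rise of 2.81 ± 0.15.

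Among genes of the cytoskeleton and of vesicle traffic, most of those described here were added after their values were seen. Of 10 named members of the NET family 2 rose, where 4.55% of all probe sets did. NET2D, of a family that binds actin to membranes, had 669.7 and 721 units with estradiol, against 246 and 272 units in the controls, a log2 rise of 1.37 ± 0.12 (limma adjusted p = 3.40e-05). NET1D had 464 and 453 units with estradiol, against 185 and 287 units in the controls, a rise of 0.94 ± 0.21 (limma adjusted p = 0.0221), lost without VND7XVE control replicate 1, VND7XVE estradiol replicate 1 or VND7XVE estradiol replicate 2 (limma adjusted p up to 0.194). PIR121, a subunit of the complex that drives actin branching, had 529 and 471 units with estradiol, against 219 and 183 units in the controls, a rise of 1.25 ± 0.19. ARLA1A, a small GTPase, had 1078 and 950.3 units with estradiol, against 243 and 201 units in the controls, a rise of 2.12 ± 0.14. PRA1.B4 had 2891 and 2499 units with estradiol, against 1366 and 1354 units in the controls and PRA1.B6 had 381 and 414 units with estradiol, against 202 and 164 units in the controls. These prenylated Rab acceptors rose by 0.97 ± 0.09 and 1.06 ± 0.15 on the log2 scale, as 2 of 3 rises among 11 named members (27.3%). PRA7 had 621 and 626 units with estradiol, against 476 and 414 units in the controls, a rise of 0.47 ± 0.11 (limma adjusted p = 0.0244), lost without VND7XVE control replicate 1, VND7XVE control replicate 2, VND7XVE estradiol replicate 1 or VND7XVE estradiol replicate 2 (limma adjusted p up to 0.169). SEC10, of the exocyst that tethers secretory vesicles, was the called 1 of 6 named genes of the exocyst and vesicle traffic (16.7%) and had 1014 and 886 units with estradiol, against 596 and 607 units in the controls, a rise of 0.64 ± 0.11 (limma adjusted p = 0.00537), lost without VND7XVE control replicate 1 or VND7XVE estradiol replicate 1 (limma adjusted p up to 0.0744). XPO1B, a nuclear export receptor, had 1973 and 1909 units with estradiol, against 1099.8 and 1017 units in the controls, a rise of 0.87 ± 0.08. BUBR1, of the spindle checkpoint, rose only to low signals, with 55.9 and 95.1 units with estradiol, against 3.4 and 4.4 units in the controls. None of 11 named microtubule, kinesin and tubulin genes was called.

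The largest rises also held genes for which the tables used here give no function. AT5G19870 had 1515 and 1533 units with estradiol, against 8.2 and 6.1 units in the controls, a log2 rise of 6.06 ± 0.31 (limma adjusted p = 9.33e-07). AT3G52900 had 1539 and 1385 units with estradiol, against 2.8 and 11.6 units in the controls, AT3G52830 had 1168 and 1086 units with estradiol, against 10.5 and 1.5 units in the controls, and AT1G13470 had 1567 and 1854 units with estradiol, against 18.4 and 16.1 units in the controls. Their log2 rises were 6.02 ± 0.38, 5.73 ± 0.31 and 5.69 ± 0.23. The neighbouring genes AT1G10800 and AT1G10810 both rose, by 5.36 ± 0.27 with 2171 and 1983 units with estradiol, against 29 and 41.7 units in the controls and by 5.41 ± 0.32 with 787 and 789 units with estradiol, against 2.4 and 3.3 units in the controls. AT2G44260 rose by 4.98 ± 0.29, AT5G48500 by 5.07 ± 0.41 and AT3G55720 by 4.69 ± 0.38, all from control signals under 60 units. AT1G70550 had 1585 and 1859 units with estradiol, against 4.6 and 29.9 units in the controls, a rise of 5.82 ± 0.38. AT5G60530, related to late embryogenesis abundant proteins, had 9550.3 and 9079 units with estradiol, against 136 and 118 units in the controls, a rise of 6.03 ± 0.12 (limma adjusted p = 2.34e-09).

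Called rises with the highest estradiol signals included small changes. AT1G69680 had 8676 and 7445 units with estradiol, against 1576 and 1499 units in the controls, a log2 rise of 2.37 ± 0.09 (limma adjusted p = 1.47e-07). AT3G57020, of the strictosidine synthase-like family, had 15054 and 13203 units with estradiol, against 8859.9 and 8618 units in the controls, a rise of 0.69 ± 0.12 (limma adjusted p = 0.00550), lost without VND7XVE control replicate 1, VND7XVE control replicate 2 or VND7XVE estradiol replicate 1 (limma adjusted p up to 0.0678). AT1G25275 had 15391 and 14203 units with estradiol, against 9668 and 8986 units in the controls, a rise of 0.66 ± 0.11 (limma adjusted p = 0.00335), lost without VND7XVE control replicate 2 (limma adjusted p = 0.0584). AT5G18310 had 13196 and 12012 units with estradiol, against 8991 and 9099.6 units in the controls, a rise of 0.48 ± 0.12 (limma adjusted p = 0.0379) that was lost in 10 of 19 alternatives, among them without SND1XVE estradiol replicate 1, SND1XVE estradiol replicate 2, VND7XVE control replicate 1, VND7XVE control replicate 2, VND7XVE estradiol replicate 1 or VND7XVE estradiol replicate 2 (limma adjusted p up to 0.231).

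Over the 684 called falls the median log2 effect was -0.55 in VND7XVE and -0.46 in SND1XVE, the latter given without a test. A difference between the lines was called for 16 of them. These probe sets were chosen for their VND7XVE fall, so the medians are a description. Falls came from probe sets of high and of low control signal. Of the 684 called falls, 624 started from control means of at least 200 units and 46 from means under 50 units, but of the 70 falls of at least 2-fold, 46 were in the low class and 17 in the high class. The 12 largest named falls all had control signals under 75 units and estradiol signals under 20 units. AT2G41580 had 1.3 and 1.3 units on the estradiol arrays, against 31.2 and 64.3 units on the control arrays, a log2 change of -1.83 ± 0.36 (limma adjusted p = 0.0110), and AT3G42530 had 1.8 and 0.6 units with estradiol, against 47.4 and 38.8 units in the controls, a change of -1.78 ± 0.33 (limma adjusted p = 0.00774). The other 10, AT5G24940, AT5G42680, AT4G01890, AT5G53320, AT1G52010, AT4G14470, AT5G17460, AT4G24170, AT2G15810 and AT1G80060, changed by -1.58 to -1.77. None of the 12 was called in all alternatives: without VND7XVE estradiol replicate 1 the call was made for 0 of them, without VND7XVE estradiol replicate 2 for 1, without VND7XVE control replicate 1 for 1 and without VND7XVE control replicate 2 for 4. Only 4 of the 12 passed a filter at the 40th percentile of signal.

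**Figure D3:**
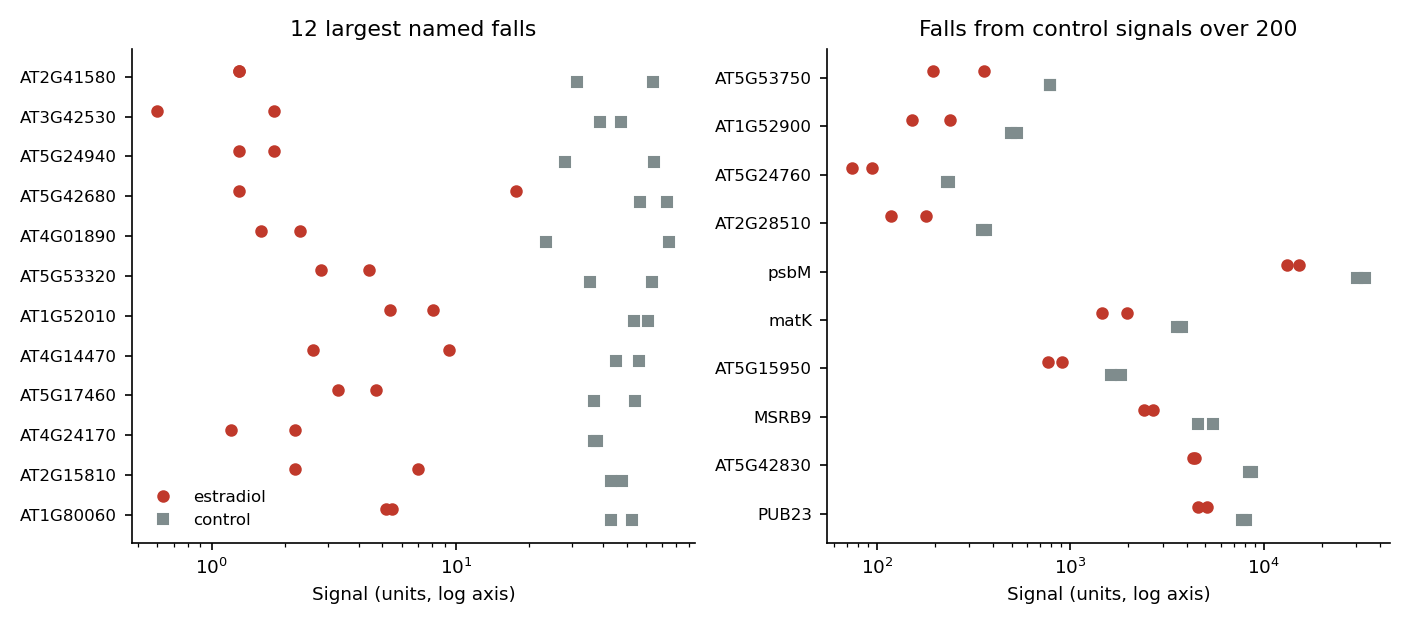
Signal on each VND7XVE array (units, log axis) for the 12 largest named falls and for 10 named falls with control signals over 200 units, with red circles for the 2 estradiol arrays and grey squares for the 2 control arrays. The first panel lies wholly under 75 units, while in the second every estradiol array lies below both control arrays of the same gene.

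Named genes with falls from higher signals were of mixed function. AT5G53750, a CBS domain protein, had 195 and 357 units on the estradiol arrays, against 787 and 789 units on the control arrays. Its log2 change was -1.52 ± 0.25 (limma adjusted p = 0.00384), and it was not called without the intensity trend. AT1G52900, with the TIR domain of immune receptors, had 152 and 240.0 units with estradiol, against 528 and 496 units in the controls, a change of -1.35 ± 0.18 (limma adjusted p = 0.00102). AT5G24760, of the alcohol dehydrogenase family, had 94.3 and 74.8 units with estradiol, against 236 and 231 units in the controls, a change of -1.32 ± 0.20. AT5G15950, an S-adenosylmethionine decarboxylase of polyamine synthesis, had 769 and 902 units with estradiol, against 1828 and 1623 units in the controls, a change of -1.03 ± 0.10 (limma adjusted p = 1.08e-04). AT5G42830, of the acyltransferase family that holds HCT, had 4441 and 4293 units with estradiol, against 8655 and 8429 units in the controls, a change of -0.97 ± 0.09. MSRB9, which repairs oxidised methionine, had 2674 and 2412 units with estradiol, against 5448 and 4556 units in the controls, a change of -0.97 ± 0.11. GH3.3, which joins auxin to amino acids, had 1557 and 1973 units with estradiol, against 2747 and 3069.8 units in the controls, a change of -0.72 ± 0.17 (limma adjusted p = 0.0245), lost without VND7XVE control replicate 1, VND7XVE control replicate 2 or VND7XVE estradiol replicate 1 (limma adjusted p up to 0.223).

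Of 69 named probe sets for genes of the plastid genome none rose and 4 fell, or 5.80% against 3.01% of all probe sets. The median over the 69 was -0.23, against -0.05 over all probe sets. The gene psbM, of photosystem II, had 15202 and 13245 units on the estradiol arrays, against 33237 and 30241 units on the control arrays, a log2 change of -1.16 ± 0.15 (limma adjusted p = 8.92e-04) called in all 19 alternatives. The gene matK, for a splicing factor, had 1458 and 1976 units with estradiol, against 3562 and 3792 units in the controls, a change of -1.11 ± 0.21 (limma adjusted p = 0.00770), lost without VND7XVE control replicate 1, VND7XVE control replicate 2 or VND7XVE estradiol replicate 1 (limma adjusted p up to 0.101). The falls of rpl16, for a ribosomal protein, and ndhJ, for the plastid NADH dehydrogenase-like complex, were -0.48 ± 0.12 (limma adjusted p = 0.0418) and -0.41 ± 0.10 (limma adjusted p = 0.0341). The call for rpl16 was lost without SND1XVE control replicate 1, SND1XVE control replicate 2, VND7XVE control replicate 1, VND7XVE control replicate 2, VND7XVE estradiol replicate 1 or VND7XVE estradiol replicate 2 (limma adjusted p up to 0.230), and that for ndhJ was lost without VND7XVE control replicate 1, VND7XVE control replicate 2, VND7XVE estradiol replicate 1 or VND7XVE estradiol replicate 2 (limma adjusted p up to 0.236).

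Members of the remaining lists were not called, apart from GH3.3. Nuclear genes that mark mesophyll were at high signal and were not called: LHCB4.1, of the light-harvesting antenna, had 5411 and 5178 units with estradiol, against 5600.0 and 5474 units in the controls, and RCA, the activator of Rubisco, had 2537 and 2728 units with estradiol, against 2763 and 2762 units in the controls. The guard cell factor FAMA, whose symbol here is FMA, had 50.1 and 79.9 units with estradiol, against 49.1 and 82.9 units in the controls, with overlapping groups. None of the phloem markers was named on the array. In vascular patterning, the peptide genes CLE41 and CLE44 and the factor LHW were not called, with log2 differences of 0.15 ± 0.21, 0.09 ± 0.23 and -0.07 ± 0.24. In the stress list STZ, also called ZAT10, had 21769 and 21237 units with estradiol, against 23716 and 22135 units in the controls, and WRKY53 had 156 and 118 units with estradiol, against 135 and 198 units in the controls. Neither was called. WES1, an auxin-responsive gene, had a log2 difference of -0.16 ± 0.19. The 4 named reference genes, AT4G34270, AT2G28390, GAPC2 and AT4G33380, differed by -0.20 ± 0.11, 0.24 ± 0.17, -0.14 ± 0.10 and -0.12 ± 0.22, and none was called in any alternative. Over all 14 lists, 31 of 153 genes were named, of which 10 rose, 5 fell and 16 were not called. Among all probe sets 4.55% rose and 3.01% fell. The lists were chosen with earlier results of these data known, so these counts are a description.

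The estradiol effect in SND1XVE cells gave a measure of what differed in VND7XVE cells. The contrast between the effects of the lines was called for 291 probe sets (1.28%), of which 196 were more positive in VND7XVE (0.862%). With 1 array left out the calls in either direction numbered 100 to 213, the lowest without VND7XVE estradiol replicate 1 (100) and VND7XVE estradiol replicate 2 (105), and without the intensity trend it was 107. Of the 633 rises of at least 2-fold in VND7XVE, 306 (48.3%) also had a log2 effect of at least 1 in SND1XVE, an effect given without a test. The difference was called for 165 of the 633, with 158 larger in VND7XVE and 7 larger in SND1XVE. The difference was called for 83 of the 139 rises of at least 8-fold, and all 83 were larger in VND7XVE. Over the 139 the median log2 effect was 4.30 in VND7XVE and 1.77 in SND1XVE. Since these probe sets were chosen for their VND7XVE rise, the medians are a description.

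**Figure D4:**
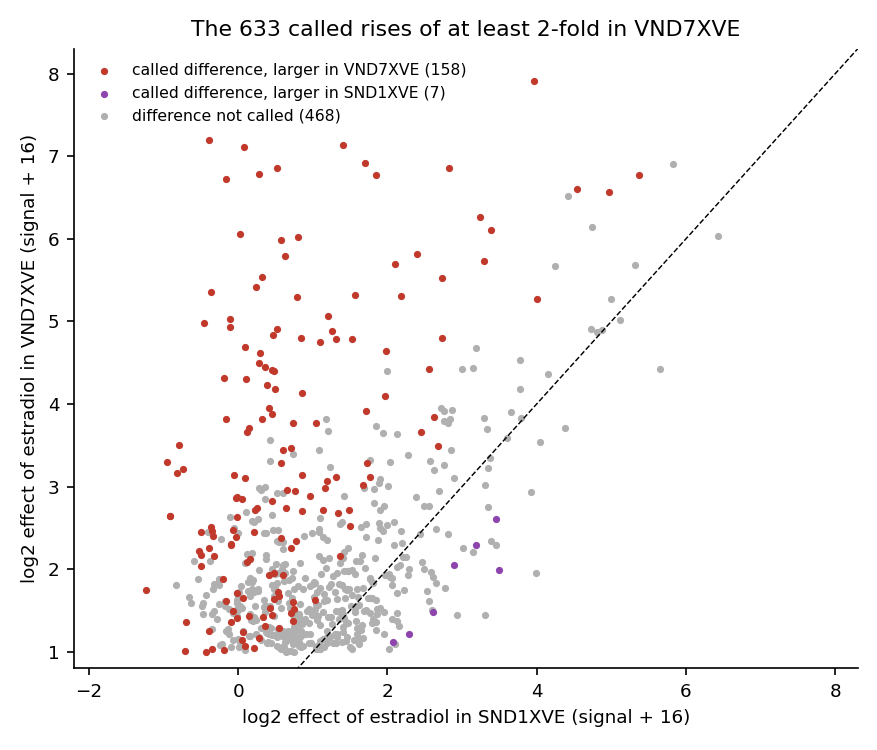
Each point is 1 of the 633 called rises of at least 2-fold in VND7XVE, placed by its log2 effect of estradiol in SND1XVE (horizontal axis) and in VND7XVE (vertical axis), with a dashed line of equal effects. The 158 red points have a called difference with the larger effect in VND7XVE, the 7 purple points one with the larger effect in SND1XVE, and for the 468 grey points the difference was not called.

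The genes with the largest difference were at the array's low end in both SND1XVE groups. AT5G40020 had 7.6 and 5.9 units on the SND1XVE estradiol arrays, against 7.6 and 3.7 units on the SND1XVE control arrays, and the difference between the lines was 7.04 ± 0.43 (limma adjusted p = 5.81e-05). AT5G19870 had 10.7 and 7 units on the SND1XVE estradiol arrays, against 10.6 and 6.1 units on the SND1XVE control arrays, a difference of 6.03 ± 0.44 (limma adjusted p = 1.22e-04). AT1G10800 had 23.7 and 13.5 units on the SND1XVE estradiol arrays, against 31.1 and 25 units on the SND1XVE control arrays, a difference of 5.72 ± 0.39, and AT2G44260 had 3.4 and 2.6 units on the SND1XVE estradiol arrays, against 15.6 and 5.5 units on the SND1XVE control arrays, a difference of 5.43 ± 0.42. The calls for these 4 genes were made in all 18 alternatives in which the difference could be tested. AT4G08160, the xylanase family member, had 37.2 and 40.5 units on the SND1XVE estradiol arrays, against 2.5 and 57.3 units on the SND1XVE control arrays, a difference of 5.41 ± 0.78 (limma adjusted p = 0.00763). That call was lost in 6 of 18 alternatives. These were without VND7XVE control replicate 2, VND7XVE estradiol replicate 1, VND7XVE estradiol replicate 2 or SND1XVE estradiol replicate 2, with 1 added to the signals, and without the intensity trend.

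Among the pectin, xylan, cell death and peroxidase genes described next, some had a called difference between the lines and others had none. Each called difference given for them was larger in VND7XVE. In the other direction, USP and scpl48 had called differences of -0.65 and -0.85. Among pectin genes, AT1G23460 had an effect of 4.79 in VND7XVE and 0.85 in SND1XVE, with a called difference of 3.95 ± 0.23 (limma adjusted p = 4.71e-05). For AT1G65570 the effects were 6.90 and 5.83, and the difference was not called (limma adjusted p = 0.516). Among xylan genes, IRX15 had 4.87 in VND7XVE and 4.80 in SND1XVE, a difference of 0.06 ± 0.34 (limma adjusted p = 0.974). GUT2 had 2.94 in VND7XVE and 2.68 in SND1XVE, also with no called difference (limma adjusted p = 0.732). TBL34 had 5.32 in VND7XVE and 1.56 in SND1XVE, a called difference of 3.75 ± 0.51 (limma adjusted p = 0.00521) that was lost without VND7XVE estradiol replicate 1 or VND7XVE estradiol replicate 2 (limma adjusted p up to 0.0652).

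Among cell death genes, AT4G18425 had 5.79 in VND7XVE and 0.64 in SND1XVE, a difference of 5.15 ± 0.42 (limma adjusted p = 2.42e-04) called in all 18 alternatives. AT4G04460 had 2.87 in VND7XVE and 2.39 in SND1XVE, with no called difference (limma adjusted p = 0.797). The peroxidase AT5G51890 had 3.14 in VND7XVE and -0.05 in SND1XVE, a difference of 3.19 ± 0.41 (limma adjusted p = 0.00420), lost without VND7XVE estradiol replicate 2 (limma adjusted p = 0.0632). The peroxidase AT1G71695 had 3.70 in VND7XVE and 3.34 in SND1XVE, with no called difference (limma adjusted p = 0.579). Of the metabolic genes, CYP71B21 had 4.62 in VND7XVE and 0.29 in SND1XVE, a difference of 4.33 ± 0.25, and GSTU22 had 4.42 in VND7XVE and 2.56 in SND1XVE, a difference of 1.87 ± 0.15. Both were called in all 18 alternatives.

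A few rises in VND7XVE were smaller than in SND1XVE. TET3, a tetraspanin, had 417 and 415 units on the estradiol arrays, against 179.8 and 229.5 units on the control arrays in VND7XVE, a rise of 0.98 ± 0.13, and 1557 and 1479 units on the SND1XVE estradiol arrays, against 178 and 174 units on the SND1XVE control arrays. The difference was -2.02 ± 0.19 (limma adjusted p = 4.97e-04), called in all 18 alternatives. AT1G23040 had effects of 0.57 in VND7XVE and 2.18 in SND1XVE, a difference of -1.61 ± 0.14 (limma adjusted p = 2.89e-04), also called in all 18. Its rise in VND7XVE itself was lost without VND7XVE control replicate 2 or VND7XVE estradiol replicate 2 (limma adjusted p up to 0.0658). AT1G80520, AT5G54870 and AT5G47050 had differences of -1.06 ± 0.20, -1.02 ± 0.13 and -1.01 ± 0.16. The call for AT1G80520 was lost whichever of the 8 arrays was left out (limma adjusted p up to 0.178). That for AT5G47050 was lost without any one of 6 arrays, namely the 4 of SND1XVE, VND7XVE control replicate 2 and VND7XVE estradiol replicate 1 (limma adjusted p up to 0.179). Its rise in VND7XVE, 0.46 ± 0.11 (limma adjusted p = 0.0360), was lost without SND1XVE control replicate 1, SND1XVE control replicate 2, SND1XVE estradiol replicate 1, SND1XVE estradiol replicate 2, VND7XVE control replicate 1, VND7XVE estradiol replicate 1 or VND7XVE estradiol replicate 2 (limma adjusted p up to 0.293).

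Fewer probe sets were called whichever VND7XVE array was left out, a step that leaves 1 array in its group. With 1 VND7XVE array left out, called rises numbered 642 to 702 and called falls 172 to 340, and rises of at least 2-fold numbered 479 to 528. Without the intensity trend there were 677 rises, 569 of them at least 2-fold, and 133 falls. Of all 1034 rises, 635 to 687 were still called with 1 VND7XVE array left out, among them 469 to 507 of the 633 of at least 2-fold. Of the 684 falls, 160 to 273 were.

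**Figure D5:**
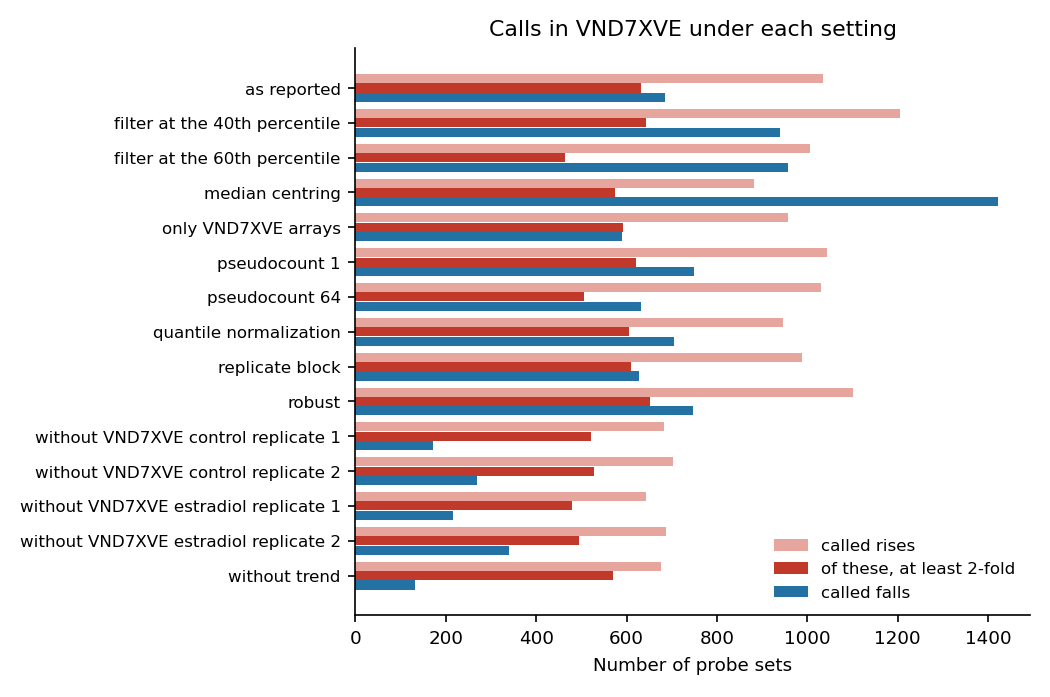
Number of probe sets called in VND7XVE as reported and under 14 of the 19 alternatives, with bars for called rises, for those of at least 2-fold and for called falls. Falls range from 133 to 1422 and rises of at least 2-fold from 463 to 652.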

How the data were processed

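RNA from 8 samples of Arabidopsis protoplasts was labelled with biotin by a 1-cycle kit and hybridised to 1 Affymetrix array each, per the labels' protocols. For every array the authors deposited 1 linear intensity per probe set, and the submitters' processing notes name GCOS as the software. The sources used here give neither its version nor its algorithm. Trimmed means were equal across arrays, so the intensity values had been scaled before deposit, and no further normalization was applied. Detection calls were not used, so whether a low signal lies above background is not known. Precision is limited by the number of arrays. Sample columns not used numbered 0.

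Groups and replicate numbers came from the sample titles. The values analysed were log2(signal + 16), a scale that shrinks changes of low signals. A model of 4 group means over all 8 arrays was fitted to 22746 probe sets with limma 3.58.1 in R 4.3.3 (eBayes with an intensity trend, 4 residual degrees of freedom, two-sided, Benjamini-Hochberg adjustment at 0.05). Errors after ± are the moderated standard errors. The contrasts were VND7XVE estradiol minus control, and this effect minus that in SND1XVE. The VND7XVE arrays enter both contrasts, which also share the estimate of spread. Python 3.11.15 with pandas 2.3.3 and matplotlib 3.10.9 served for tables and figures.

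Names came from the platform annotation, updated by gene identifier through NCBI's reference genes of assembly TAIR10.1. Of the 13513 probe sets that name 1 gene, 13436 matched, and 11885 of these have a locus code as symbol. For 144 loci with more than 1 probe set, 0 had opposite calls. Coordinates are left out because the array's build is unknown.

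The comparison, the gene lists and the tests were chosen with earlier results of these data known. The genes named are, among called probe sets with 1 gene name and groups without overlap, the 30 largest rises, the 12 largest falls, the 10 rises of highest estradiol signal and the 5 largest differences between lines in each direction, with all named members of 14 lists and up to 4 called members per family. Families defined by symbol, and further genes, were added after their values were seen. Alternatives were pseudocounts of 1 and 64, quantile normalization, median centring, filters at the 40th and 60th percentile on at least 2 arrays, no intensity trend, robust estimation, a replicate block, only VND7XVE arrays, only probe sets naming 1 gene, and each array left out in turn, 19 in all. Replicate numbers were checked as pairs: deviations of same-numbered VND7XVE arrays from their group means correlated at 0.004, so they were not treated as pairs.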

Additional observations from a re-analysis of the deposited data

Results flagged for a closer look

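The difference between the estradiol effects of VND7XVE and SND1XVE cells, each relative to its own cycloheximide control, was called by limma (adjusted p under 0.05 over 22746 probe sets) for 55 of the named genes. It is positive where the VND7XVE effect was the higher. All values are on the log2 scale, and 1.28% of all probe sets had such a call.

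Among genes of the cell wall and its polymers, the difference was 5.41 for the xylanase family member AT4G08160, 4.22 for AT4G24430, 3.95 for AT1G23460, 3.75 for TBL34, 3.02 for AT5G38610, 1.61 for AT1G70500 and -0.65 for USP. For the peroxidases it was 3.48 in AT4G36430, 3.19 in AT5G51890, 2.89 in AT5G15180 and 1.40 in AT5G66390. The cupredoxin AT3G27200 and the glucosidase gene BGLU45 had 2.07 and 1.19. For AT5G40020, of the thaumatin family, the difference was 7.04. With 1 added to the signals in place of 16, the calls for AT4G08160, AT1G70500, AT5G66390, AT5G15180 and AT3G27200 were lost. The control signals of AT1G70500 were 177 and 129 units in VND7XVE, against 2.9 and 6.9 units in SND1XVE.

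Among cell death genes the difference was 5.15 for AT4G18425, 3.50 for AT2G14095, 0.82 for scpl20 and -0.85 for scpl48, so that scpl48 rose more in SND1XVE. Among transcription factors it was 4.93 for AT3G10590, 2.73 for AT4G08250, 2.53 for AT1G21340, 2.41 for NGA2, 1.88 for AT4G28140 and 1.28 for AT5G03510. Among genes of signalling and traffic it was 4.30 for AT1G13920, 3.56 for AT5G59845, 2.67 for BUBR1, 1.95 for ARLA1A, 1.22 for PUB25, 0.72 for XPO1B, 0.77 for PRA7 and -2.02 for TET3. With 1 added to the signals, the calls for AT2G14095, AT4G08250, AT1G21340, AT5G03510 and BUBR1 were lost.

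Among metabolic genes the difference was 4.33 for CYP71B21, 3.42 for CHIL, 3.26 for AT3G14360, 1.87 for GSTU22, 1.33 for AMY1 and 1.18 for HMT-1. Genes described without a function had differences of 6.03 for AT5G19870, 5.72 for AT1G10800, 5.43 for AT2G44260, 5.21 for AT3G52900, 5.18 for AT1G10810, 4.60 for AT3G55720, 3.86 for AT5G48500, 3.59 for AT1G13470, 3.42 for AT1G70550, 2.43 for AT3G52830 and 1.80 for AT1G69680. On the other side, AT1G23040 had -1.61, AT1G80520 -1.06, AT5G54870 -1.02 and AT5G47050 -1.01. With 1 added to the signals, the calls for CHIL, AT3G52900, AT3G55720, AT5G48500, AT1G70550 and AT3G52830 were lost.

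A pair of called differences did not follow from a larger rise. CLE44, a peptide gene of vascular tissue, was not called in VND7XVE, where its effect was 0.09, and had an effect of -1.57 in SND1XVE, a difference of 1.66. The plastid gene psbM fell in VND7XVE by 1.16 and had an effect of -0.03 in SND1XVE, a difference of -1.13. Of the 55 calls, 20 were made in every alternative, and the others were each lost in some. The calls for CLE44 and psbM were lost in 8 and 10 of 18 alternatives. Among genes listed above, calls were lost in 12 of 18 for PRA7, 11 of 18 for AT3G27200 and USP and 10 of 18 for PUB25. They were lost in 13 of 17 for AT1G21340 and 11 of 17 for BUBR1.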

How the results depend on the processing

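Called rises numbered 1034 as reported, 677 without the intensity trend and 642 to 1020 with 1 array left out. Called falls numbered 684 as reported, 1422 after median centring, 133 without the intensity trend and 172 to 625 with 1 array left out. Rises of at least 2-fold numbered 633 as reported and 463 to 652 over all alternatives, other than 359 where only probe sets naming 1 gene were tested, of which 379 were called as reported. Calls of the difference between the lines numbered 291 as reported, 452 with the filter at the 40th percentile, 107 without the intensity trend and 100 to 213 with 1 array left out. With the replicate block, rises numbered 989, falls 628 and differences 253. The numbers are shared labels with no sign of pairing (correlation of deviations 0.004 in VND7XVE and -0.002 in SND1XVE). The causes of these shifts were not tested. No called change of a named gene changed direction; over the named genes, 2579 values kept their side of the threshold, and 256 values, in 46 genes, lost their call. The runs named above beside a lost call are not always all that lost it. Without the intensity trend the calls for USP, SCPL49, NET1D, SEC10, PUB22, GH3.3 and matK were also lost. The same holds for the differences of AT1G80520 and AT5G47050. Of the 55 named genes with a called difference between lines, 20 kept it in every alternative where it could be tested. At signals below about 50 units the size of a change also depends on the pseudocount.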

Other observations

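Neighbouring genes were sometimes called together. In the gene order of the reference assembly, 5818 pairs of neighbours both had a named probe set. Both genes were called in VND7XVE cells in 49 of these pairs (0.842%). Of these 49, 27 rose together, 10 fell together and 12 moved in opposite directions, and 10 held rises of at least 2-fold on both sides. Of the named genes taken singly 7.01% were called, a share not comparable with that of pairs. No expected share of pairs was computed. The largest such pair was AT1G10800 and AT1G10810, with log2 rises of 5.36 and 5.41. In the pair AT3G14340 and AT3G14360 the rises were 2.98 and 4.79. The peroxidase gene AT4G36430 rose by 4.79 beside AT4G36440, which rose by 0.99. In opposite directions, AT3G54520 rose by 3.26 beside AT3G54510, which changed by -0.75. These pairs were chosen after their values were seen, and no test of them was made.

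The largest rise of all, 7.91 on the log2 scale, was that of a probe set that names no single gene in the annotation used here. Called rises made up 4.33% of the probe sets that name 1 gene and 4.86% of the others, and called falls 2.61% and 3.59%.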
